A study of Mus musculus with 8 samples.

Results

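The genes described here are 10 genes of glucose uptake and glycolysis in mouse spermatogonia with and without the histone demethylase KDM1A. They are the glucose transporters Slc2a1 and Slc2a3, the hexokinases Hk1 and Hk2, the phosphofructokinases Pfkl, Pfkm and Pfkp, and Tpi1, Pgk1 and Ldha. They were picked by symbol, with earlier results of these data known. All 10 were found, as 27 transcript entries among the 45550 of the table, which sum to 17589 genes, and all 10 passed the filter of a mean of 1 FPKM that left 13483 genes to test. FPKM are fragment numbers scaled to the length of the transcript and to the size of the library, so levels of different genes can be set side by side. Reads shared with copies of a gene limit this for Tpi1, Pgk1 and Ldha.

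The libraries came from testes of C57BL/6 mice of the GOF/deltaPE-Oct4/GFP reporter strain at 6 days after birth. In this strain regulatory sequences of the pluripotency gene Pou5f1 drive GFP, and GFP-positive germ cells were sorted from the digested tissue. There were 4 libraries with the genotype Control and 4 with KDM1A KO, and every library carried the reporter. The protocol calls the mutant a conditional knockout, and neither the Cre driver, the deleted part of the gene nor the genotype of the controls is given in the sources used here. The labels do not say that libraries came from separate animals, so the p-values measure only the spread between these libraries, which may be technical. Where the values of 4 libraries are given, they follow the order of replicates 1 to 4. The targeted gene was at 53.7, 54.0, 92.0 and 48.1 FPKM with the Control genotype and at 14.2, 14.1, 17.3 and 14.9 FPKM with KDM1A KO (Kdm1a, log2 change -1.92, limma adjusted p = 6.88e-05).

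Glucose enters cells through facilitative transporters of the SLC2A family, among them GLUT1, encoded by Slc2a1, and the high-affinity GLUT3, encoded by Slc2a3. Hexokinase traps it as glucose phosphate, phosphofructokinase commits it to glycolysis, and lactate dehydrogenase turns the resulting pyruvate into lactate. Several steps have isozymes from different genes, and in the testis some steps gain further isozymes restricted to later germ cells. Stem-like spermatogonia are known for a high use of glycolysis, while meiotic cells rely more on lactate supplied by Sertoli cells.

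In the knockout, 6 of the 10 genes were higher, 1 was lower and 3 were not called, at an adjusted p under 0.05 by limma over all genes tested. The rises were in Slc2a3, Pfkp, Tpi1, Ldha, Pgk1 and Pfkm, by 1.42-fold to 3.44-fold, and the fall was in Slc2a1, 1.42-fold. Of all 13483 genes tested, 25.3% were called higher and 12.1% lower. The median log2 change of the 10 genes was 0.47, against 0.09 for all genes tested. The knockout values lay wholly above the control values in 6 of the genes and wholly below in 2, Slc2a1 and Hk1, against 26.1% and 12.5% of all genes tested. Genes of a log2 change of at least 1 were 3 of the 10, Slc2a3, Pfkp and Tpi1, against 4.56% of all genes tested, and 7 of the 10 were called in either direction, against 37.5%. Since the 10 genes were picked with earlier results of these data known, these comparisons are descriptions and not tests. The 90 other tested genes of these pathways had a median log2 change of -0.01. The 10 genes did not change as a block, since the transporters moved in opposite directions and the phosphofructokinases by unequal amounts. Of the 27 transcript entries, 18 passed the filter, of which 8 were called higher, 2 lower and 8 not called. An Ldha entry among the 8 passed the filter through the knockout libraries alone. Of all 26612 entries tested, 12% were called higher and 5.93% lower.

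**Figure D1:**
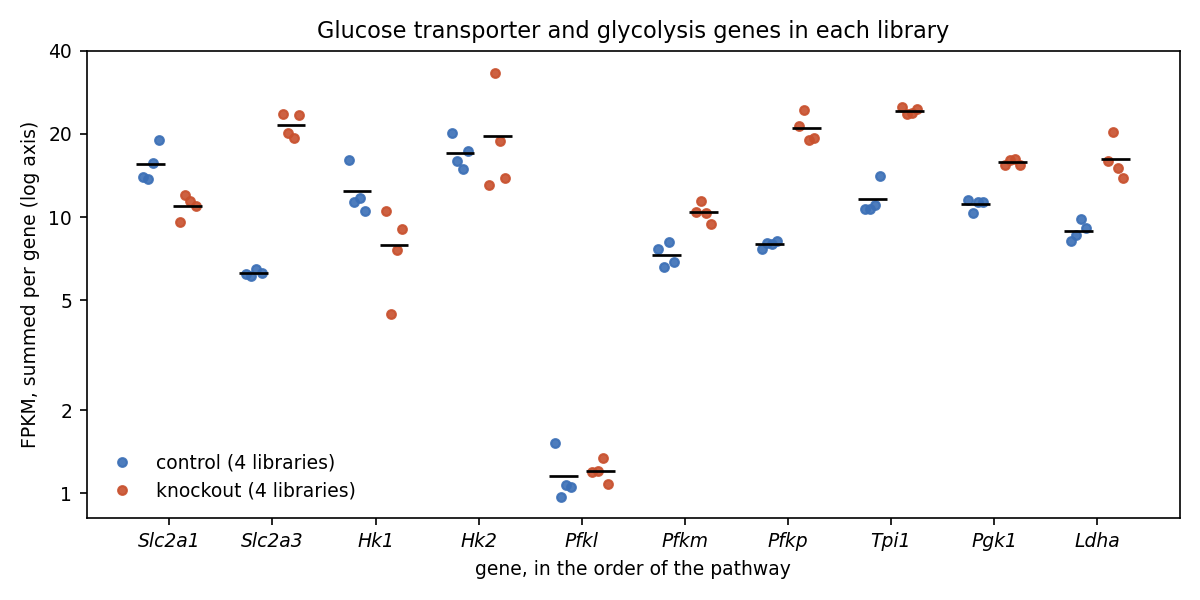
FPKM of the 10 genes in each library on a log axis, with blue points for the 4 control libraries, orange points for the 4 knockout libraries and black marks for means. The groups are fully apart for all genes but Hk2 and Pfkl, and Slc2a1 and Hk1 are the pair that lies lower in the knockout.

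Facts of the whole series bear on these values. Depth was not stated, and the steps between low FPKM gave about 60700000 to 67100000 fragments per control library and 44950000 to 62900000 per knockout library. A gene as low as Pfkl then rests on about 187 to 338 fragments per library. Knockout replicate 2 stood apart with 1642 transcript entries listed at 0, against 506 to 734 in the other libraries. The microRNA entry Mir5105 took 61.3% to 77.1% of all FPKM in control libraries and 29.4% to 52.7% in knockout libraries. These are shares of FPKM, which are divided by transcript length, and not shares of fragments. Calls over all genes, 3417 higher and 1635 lower as deposited, depend on scaling: median-ratio scaling gave 2377 and 2769, quantile normalization 2655 and 2648, removal of small RNAs together with equal totals 2237 and 1805, and equal totals alone 9808 and 147. The median gene then had a log2 change of 0.74 with equal totals and -0.04 with median-ratio scaling. The sums made equal in the setting of equal totals alone include Mir5105. In the bulk RNA of sorted cells, fewer cells of a type and less RNA per cell cannot be told apart.

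Some start regions of these genes are shown first, because Ldha and Pfkm have transcript entries from separate start sites that differed in level and in size of change, while Pgk1 has a single entry. The sequences, from RefSeq, are the 250 bases before each RefSeq start, 5′ to 3′ on the gene's strand, on GRCm38.p6. Capitals mark ACGTG and GCGTG, on either strand, the core letters of the element bound by hypoxia-inducible factors. ACGTG also forms part of CACGTG, the E-box read by MYC and other factors.
Ldha, upstream start, chr7:46845554-46845803, plus strand: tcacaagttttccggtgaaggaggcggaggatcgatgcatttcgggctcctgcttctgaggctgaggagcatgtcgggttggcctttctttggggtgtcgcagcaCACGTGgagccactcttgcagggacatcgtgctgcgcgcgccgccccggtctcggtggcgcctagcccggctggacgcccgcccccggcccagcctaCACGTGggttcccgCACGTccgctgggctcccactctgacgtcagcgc
Ldha, downstream start, chr7:46846832-46847081, plus strand: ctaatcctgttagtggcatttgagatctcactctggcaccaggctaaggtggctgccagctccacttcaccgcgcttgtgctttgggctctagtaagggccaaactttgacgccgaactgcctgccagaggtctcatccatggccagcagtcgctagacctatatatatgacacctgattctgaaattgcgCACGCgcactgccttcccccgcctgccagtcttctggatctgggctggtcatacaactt
Pfkm, upstream start, chr15:98092339-98092588, plus strand: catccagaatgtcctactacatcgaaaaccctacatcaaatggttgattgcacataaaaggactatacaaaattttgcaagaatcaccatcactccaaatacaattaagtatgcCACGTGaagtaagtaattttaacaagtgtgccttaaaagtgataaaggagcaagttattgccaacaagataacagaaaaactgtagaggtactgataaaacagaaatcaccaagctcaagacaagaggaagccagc
Pfkm, downstream start, chr15:98108221-98108470, plus strand: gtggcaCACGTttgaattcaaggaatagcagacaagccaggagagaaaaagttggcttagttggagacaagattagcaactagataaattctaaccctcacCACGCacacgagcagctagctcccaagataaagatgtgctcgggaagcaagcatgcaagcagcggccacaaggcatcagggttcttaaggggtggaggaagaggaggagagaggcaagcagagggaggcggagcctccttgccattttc
Pgk1, chrX:106186850-106187099, plus strand: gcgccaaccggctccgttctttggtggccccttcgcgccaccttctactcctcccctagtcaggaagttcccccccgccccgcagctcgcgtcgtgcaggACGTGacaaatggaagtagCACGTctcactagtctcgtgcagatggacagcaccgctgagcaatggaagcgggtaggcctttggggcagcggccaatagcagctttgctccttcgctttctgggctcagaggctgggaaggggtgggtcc
Of the 10 genes, 9 had windows in the RefSeq table, 14 windows in all, and Slc2a3 had none. ACGTG or GCGTG stood in 11 of the 14 windows, belonging to 8 genes, or 78.6%. These genes were Ldha, Pfkm, Pfkp and Pgk1, called higher, Slc2a1, called lower, and Hk1, Hk2 and Pfkl, not called. The windows are not all separate: a pair of the Pfkm windows overlap and share a GCGTG. Over all 32851 windows of the same length the share was 38.6%. The members' windows had a median GC content of 59.8%, against 52.4% for all windows, and the part of base composition in these shares was not tested. The upstream Ldha window held CACGTG at positions -145 and -48 and a further ACGTG, on the reverse strand, at -34, where -1 is the last base before the start. CACGTG was in 6.02% of all windows. The upstream Pfkm window also held a CACGTG, at -136. Pgk1 had ACGTG at -150 and, on the reverse strand, at -131. The Tpi1 window, 124814159 to 124814408 on chromosome 6, held neither motif. It lies before the start of a retained-intron entry, and the main coding Tpi1 entry starts inside it, at 124814296. Part of this window is therefore within the main entry. These are matches of letters, and binding was not measured here.

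The glucose transporters exchanged rank. Slc2a1 (ENSMUSG00000028645, plus strand of chromosome 4, 119108711 to 119137983 in mm10) had FPKM of 13.9, 13.7, 15.8 and 18.9 in control libraries and 9.63, 12.0, 11.4 and 11.0 in knockout libraries. Every knockout library was below every control library. The means were 15.6 ± 2.42 and 11.0 ± 1.004 (SD, n = 4 each), with a log2 change of -0.46 (SE 0.12, limma adjusted p = 0.0127). With equal totals its log2 change was 0.21, which lay under the median of all genes at that scaling, and it was not called (adjusted p = 0.451). Slc2a3 (ENSMUSG00000003153, minus strand of chromosome 6, 122727809 to 122801640) had FPKM of 6.23, 6.14, 6.51 and 6.28 in control libraries and 23.7, 20.1, 19.3 and 23.3 in knockout libraries. The controls were nearly equal, and all 4 knockouts were far above them. The rise was 3.44-fold, from 6.29 ± 0.158 to 21.6 ± 2.22 FPKM (log2 change 1.63, SE 0.09, adjusted p = 5.75e-06), the largest log2 change of the 10 genes.

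Slc2a3 made up 24.9% to 30.9% of the summed FPKM of the transporter pair in control libraries and 62.6% to 71.1% in knockout libraries. The ratio of Slc2a1 to Slc2a3 within a library does not depend on how libraries are scaled. It fell 4.82-fold, a difference of -2.27 on the log2 scale. A two-sided exact permutation test with 70 assignments gave p = 0.0286, the smallest the design allows (adjusted p = 0.0429 over 6 isozyme pairs). The groups were already apart for each of these genes, in opposite directions. This p was therefore fixed by the values above and adds no support to them. The 6 pairs were chosen with earlier results of these data known. The FPKM of the pair together went from 21.9 ± 2.48 to 32.6 ± 1.55.

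**Figure D2:**
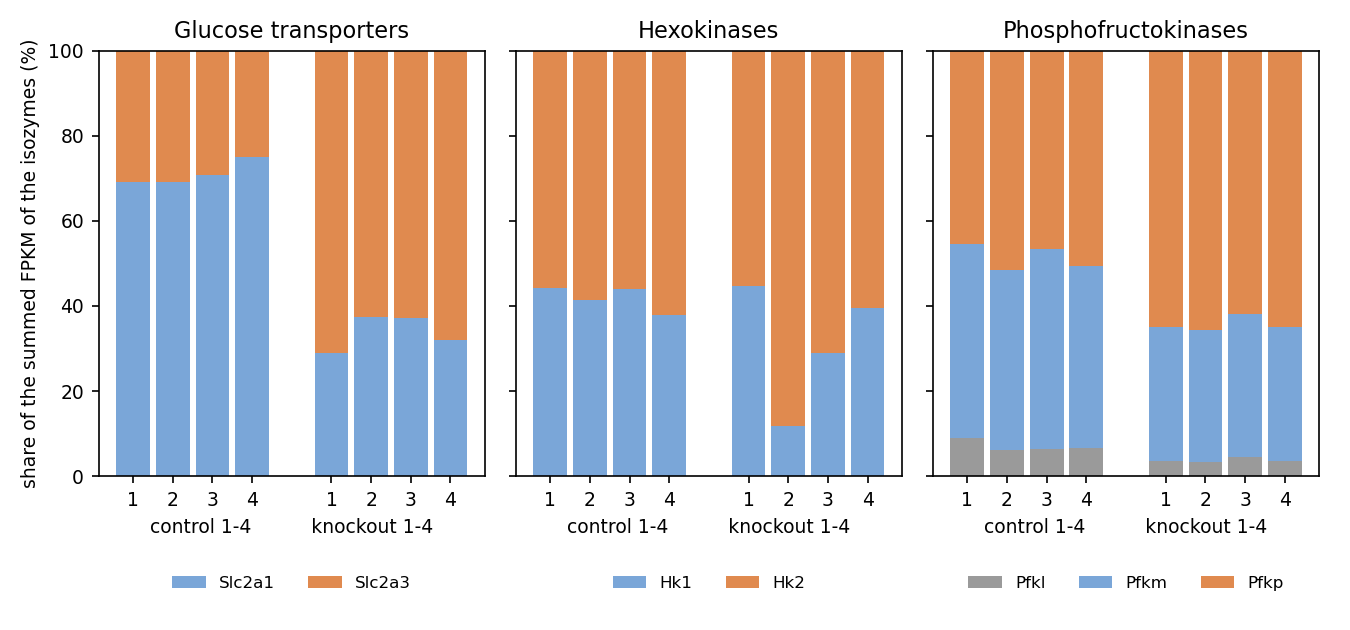
Share of the summed FPKM of each isozyme family taken by each gene, with a bar for each library, control replicates 1 to 4 on the left and knockout replicates 1 to 4 on the right of each panel. Slc2a3 is at 24.9% to 30.9% in the controls against 62.6% to 71.1%, and Pfkp is at 45.4% to 51.6% in the controls against 61.8% to 65.8%, while the hexokinase shares overlap.

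Most of the Slc2a3 rise was in a single entry. The protein-coding transcript of 3959 bases had FPKM of 2.51, 1.26, 1.68 and 1.59 in control libraries and 16.5, 11.1, 11.8 and 17.4 in knockout libraries. That was an 8.05-fold rise (log2 change 2.45, SE 0.19, limma adjusted p = 0.000159 over all transcript entries tested). A retained-intron transcript of 6253 bases was at 3.90 ± 0.595 in control libraries and 5.96 ± 2.01 in knockout libraries and was not called (adjusted p = 0.141). In control libraries this non-coding entry was the higher of the pair in every library, and in knockout libraries the coding one was. The coding entry of 3959 bases held 28.003% ± 8.49 of the Slc2a3 FPKM in control libraries and 65.0% ± 8.59 in knockout libraries (exact permutation test, p = 0.0286, adjusted p = 0.0571 over the 6 genes with several tested entries). Estimates of single transcripts divide shared fragments and are less certain than sums. A processed pseudogene, Gm4482, lies within the annotated span of Slc2a3 on the same strand.

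Hexokinases did not show a clear change. Hk1 (ENSMUSG00000037012, minus strand of chromosome 10, 62268855 to 62379908), the most widely expressed hexokinase, had FPKM of 16.03, 11.3, 11.7 and 10.5 in control libraries and 10.5, 4.47, 7.63 and 9.04 in knockout libraries. The groups nearly touched, between control replicate 4 and knockout replicate 1. The means were 12.4 ± 2.47 and 7.90 ± 2.57 (log2 change -0.63, SE 0.22), and Hk1 just missed the threshold (adjusted p = 0.0522). It passed after median-ratio scaling (-0.76, adjusted p = 0.0313), quantile normalization (-0.75, 0.0255) and without knockout replicate 1 (-0.77, 0.0258). Without knockout replicate 2 it was at -0.41 (adjusted p = 0.0542). With equal totals the log2 change of Hk1 was 0.0343, under the median of all genes at that scaling. Hk1os, which overlaps Hk1 on the opposite strand, was at 1.33 ± 0.155 and 1.65 ± 0.277 and was not called (adjusted p = 0.204). The coding Hk1 entry of 4278 bases fell from 7.45 ± 0.667 to 5.40 ± 0.782 FPKM (adjusted p = 0.0487), and the coding entry of 2916 bases was at 0.00145 in knockout replicate 2 and 2.58 to 4.39 in the other knockouts.

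Hk2 (ENSMUSG00000000628, minus strand of chromosome 6, 82725025 to 82774454), an inducible hexokinase, had the highest mean of the 10 genes in control libraries, although Slc2a1 was higher in control replicates 3 and 4. It had FPKM of 20.2, 15.96, 14.9 and 17.3 in control libraries and 13.0, 33.1, 18.8 and 13.8 in knockout libraries. The groups overlapped and it was not called (log2 change 0.11, SE 0.25, adjusted p = 0.773). The high value of knockout replicate 2 lay in a short processed transcript of 594 bases, at 21.1 there and 0.784 to 5.22 in the other knockouts. The coding entry of 5513 bases was at 14.97 ± 3.22 and 12.4 ± 0.814 (adjusted p = 0.277). Its control mean was under that of Slc2a1, 15.6, so the first place of Hk2 depends on the processed transcript. Without knockout replicate 2 the log2 change of Hk2 was -0.17, and it was not called (adjusted p = 0.366). With equal totals it was called higher, at 0.79 (adjusted p = 0.00475), near the median of all genes at that scaling. The Hk1 to Hk2 ratio did not pass the test (difference -0.81, exact permutation p = 0.257, adjusted p = 0.309). Without knockout replicate 2 that difference was -0.27.

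Of the phosphofructokinase genes, Pfkp and Pfkm rose and Pfkl was not called. Pfkp (ENSMUSG00000021196, minus strand of chromosome 13, 6579768 to 6648777), the platelet-type isozyme, had FPKM of 7.66, 8.06, 8.02 and 8.16 in control libraries and 21.4, 24.3, 18.9 and 19.4 in knockout libraries. All 4 knockouts were far above the highest control. The rise was 2.64-fold, from 7.97 ± 0.215 to 21.02 ± 2.46 (log2 change 1.29, SE 0.09, adjusted p = 1.81e-05). Pfkm (ENSMUSG00000033065, plus strand of chromosome 15, 98092589 to 98132451), the muscle-type isozyme, had 7.68, 6.60, 8.11 and 6.88 in control libraries and 10.4, 11.5, 10.4 and 9.43 in knockout libraries. The groups did not overlap, and the rise was 1.42-fold (log2 change 0.46, SE 0.10, adjusted p = 0.00500). Pfkl (ENSMUSG00000020277, minus strand of chromosome 10, 77986947 to 78010083), the liver-type isozyme, was the lowest of the 10 genes, at 1.52, 0.972, 1.07 and 1.06 in control libraries and 1.19, 1.20, 1.34 and 1.08 in knockout libraries. Its groups overlapped and it was not called (log2 change 0.04, SE 0.10, adjusted p = 0.799). With equal totals it was called higher, at 0.44 (adjusted p = 0.0404), under the median of all genes at that scaling.

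The summed FPKM of the 3 phosphofructokinases went from 16.4 ± 0.716 to 32.6 ± 3.19. In control libraries Pfkm and Pfkp were close, with 44.4% ± 2.33 and 48.6% ± 3.001 of that sum, and in knockout libraries they held 32.0% ± 1.28 and 64.3% ± 1.75. The Pfkm to Pfkp ratio fell 1.84-fold, the Pfkl to Pfkp ratio 2.48-fold and the Pfkl to Pfkm ratio 1.35-fold. Each gave p = 0.0286 in the exact permutation test, adjusted p = 0.0429. With the most abundant entry of each gene in place of the sum, the Pfkl to Pfkm difference was -0.17 (adjusted p = 0.583). The Pfkl to Pfkp, Pfkm to Pfkp and Slc2a1 to Slc2a3 differences were then -1.97, -1.80 and -3.52 and also missed the threshold (adjusted p = 0.0571 for each, by exact permutation).

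Both coding entries of Pfkp rose. The entry of 2679 bases went from 2.33 ± 0.327 to 9.67 ± 1.54 FPKM, 4.14-fold (adjusted p = 0.000180), and that of 4145 bases from 2.62 ± 0.425 to 5.07 ± 0.535, 1.93-fold (adjusted p = 0.00498). The retained-intron entries of 2680 and 8681 bases were not called (adjusted p = 0.226 and 0.322). For Pfkm the called entry was the minor one, which begins at the upstream start shown above, at 1.64, 0.994, 0.576 and 1.20 in control libraries and 2.06, 4.25, 3.51 and 2.36 in knockout libraries (2.76-fold, adjusted p = 0.0212). The major entry, from the downstream start, was at 6.21 ± 0.897 and 7.36 ± 0.660 and was not called (adjusted p = 0.230). Its share of Pfkm FPKM, 84.8% ± 6.02 and 71.0% ± 7.93, did not pass the exact permutation test (p = 0.0571, adjusted p = 0.0857). Senp1 overlaps Pfkm and Pitrm1 overlaps Pfkp on the opposite strand. They were at 24.2 ± 2.09 and 29.4 ± 4.10, and at 17.8 ± 2.04 and 19.2 ± 1.76 FPKM, and neither was called (adjusted p = 0.0934 and 0.479).

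**Figure D3:**
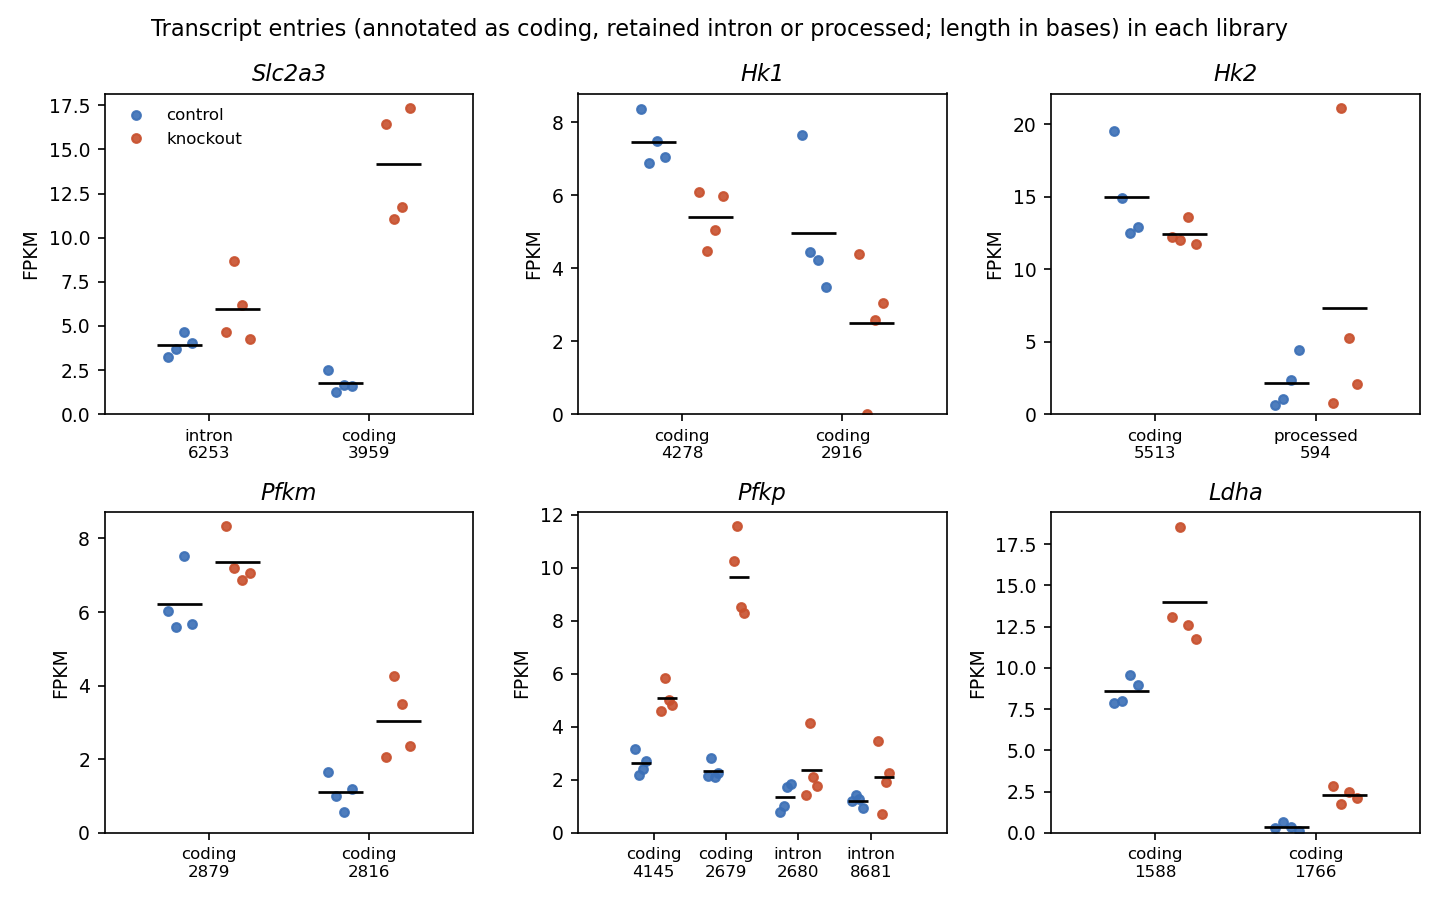
FPKM of the tested transcript entries of the 6 genes with several such entries, labelled by annotated type and length in bases, with blue points for control and orange points for knockout libraries and black marks for means. The coding Slc2a3 entry of 3959 bases rises from a mean of 1.76 to 14.2, and the processed Hk2 entry of 594 bases is at 21.1 in a single knockout library.

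Of the enzymes of lower glycolysis, Tpi1 rose most. Tpi1 (ENSMUSG00000023456, minus strand of chromosome 6, 124810586 to 124814296), which interconverts the triose phosphates, had FPKM of 10.7, 10.7, 11.1 and 14.1 in control libraries and 25.1, 23.5, 23.9 and 24.7 in knockout libraries. The knockouts lay close together and far above every control. The rise was 2.09-fold, from 11.6 ± 1.63 to 24.3 ± 0.706 (log2 change 1.01, SE 0.10, adjusted p = 6.83e-05). Nearly all of it was in a coding entry of 1607 bases, from 10.8 ± 2.10 to 22.5 ± 0.286 FPKM. Pgk1 (ENSMUSG00000062070, plus strand of the X chromosome, 106187100 to 106203699), phosphoglycerate kinase, makes ATP further along the pathway. It had 11.5, 10.4, 11.3 and 11.3 in control libraries and 15.5, 16.1, 16.2 and 15.5 in knockout libraries, a rise of 1.42-fold (log2 change 0.47, SE 0.07, adjusted p = 0.000903). The groups did not overlap. Its retrogene Pgk2, which takes over in later germ cells, was at 0.173 ± 0.103 and 0.778 ± 0.165 FPKM and lay below the filter, so it was not tested.

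Ldha (ENSMUSG00000063229, plus strand of chromosome 7, 46841475 to 46855627), the lactate dehydrogenase subunit that favours lactate formation, had FPKM of 8.17, 8.60, 9.87 and 9.11 in control libraries and 15.9, 20.3, 15.1 and 13.9 in knockout libraries. The groups were apart, with knockout replicate 2 highest. The rise was 1.82-fold, from 8.94 ± 0.729 to 16.3 ± 2.80 (log2 change 0.79, SE 0.12, adjusted p = 0.000903). The major entry, near the upstream start, rose from 8.59 ± 0.809 to 13.99 ± 3.08, 1.63-fold (adjusted p = 0.0190). The minor entry, near the downstream start, was at 0.309, 0.623, 0.325 and 0.129 FPKM in control libraries and 2.85, 1.75, 2.45 and 2.12 in those of the knockout. It passed the filter through the knockout libraries alone, so these values are given as a description. The major entry's share went from 96.1% ± 2.43 to 85.5% ± 4.08 (exact permutation test, p = 0.0286, adjusted p = 0.0571). Ldhb, the subunit that favours lactate use, was at 9.92 ± 3.22 and 14.1 ± 1.77 and was not called (adjusted p = 0.0713). The Ldha to Ldhb ratio did not pass the test (difference 0.29, exact permutation p = 0.371, adjusted p = 0.371). Genes named in the annotation as pseudogenes or related sequences number 6 for Tpi1, 3 for Pgk1 and 2 for Ldha. Copies under other names were not counted, and an Ldha copy is among the deposited entries. Reads that fit both a gene and its copies leave these 3 genes uncertain.

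By level, with all entries of a gene summed, the order in control libraries was Hk2, Slc2a1, Hk1, Tpi1, Pgk1, Ldha, Pfkp, Pfkm, Slc2a3 and Pfkl. The places of Tpi1, Pgk1 and Ldha are uncertain, since reads may fit both them and their named copies. Other tested genes of lower glycolysis had control means from 2.94 FPKM for Eno4 to 268 for Pkm, with Gapdh at 105.0. Whether shared reads lowered the 3 genes was not tested. The libraries' ranges overlapped between each neighbour from Hk2 to Pgk1 and between Pfkp and Pfkm, and were apart at the other steps of that order. In knockout libraries the order was Tpi1, Slc2a3, Pfkp, Hk2, Ldha, Pgk1, Slc2a1, Pfkm, Hk1 and Pfkl. Here the ranges were apart only between Pgk1 and Slc2a1 and between Hk1 and Pfkl. Slc2a3 thus went from the next to last place to the second. Across the 8 libraries, the genes most like Slc2a3 by Pearson's r of log2(FPKM + 1) were Pvrl3, Rhox2g and Pifo, each at 0.998. These values share the difference between groups.

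Other genes of these pathways, taken from 10 lists, had a median log2 change of -0.01 over the 90 tested that are not among the 10 genes. Of these, 22 were called higher, 15 lower and 53 not called, against 25.3% higher and 12.1% lower over all genes tested, so the share of rises was near that of all genes. The counts for single lists are read against the same shares. Among transporters, the fructose transporter Slc2a5 was at 0.783 ± 0.0981 and 2.95 ± 0.549 FPKM. It passed the filter through the knockout libraries alone, so its place among the 22 is a description, and the only other one tested was not called. In the hexokinase list Adpgk, an ADP-dependent glucokinase, rose 1.31-fold (adjusted p = 0.0100) and Gpi1, the isomerase after hexokinase, fell 1.22-fold, from 249.4 ± 17.7 to 205.2 ± 12.3 (adjusted p = 0.0330). Both calls depend on scaling: Adpgk was not called after median-ratio scaling (adjusted p = 0.0604), and Gpi1 was not called with equal totals (adjusted p = 0.112). The log2 change of Gpi1 with equal totals, 0.44, lay under the median of all genes at that scaling, 0.74. Gpi1 stayed lower after median-ratio scaling (-0.43), quantile normalization (-0.32) and removal of small RNAs with equal totals (-0.41). Of 4 other genes tested in the phosphofructokinase list, 2 rose and 0 fell. They were Pfkfb1, 1.65-fold, and Pfkfb2, 1.43-fold, whose enzymes set the level of an activator of phosphofructokinase. Pfkfb2 was not called after median-ratio scaling (adjusted p = 0.147), quantile normalization or removal of small RNAs with equal totals, and its groups overlapped.

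Below phosphofructokinase, Gapdh and Bpgm were called higher and Eno1 lower. Among 9 others tested there were 2 rises and 1 fall, and 6 had no call, with a median log2 change of -0.07. Gapdh went from 105.0 ± 9.36 to 134.7 ± 20.3 FPKM (adjusted p = 0.0386, and 0.126 after median-ratio scaling). Eno1, enolase, went from 169.1 ± 16.1 to 128.1 ± 28.3 (adjusted p = 0.0479), with knockout replicate 2 at 170.2. With equal totals the log2 change of Eno1 was 0.30, under the median of all genes at that scaling. Bpgm, which makes bisphosphoglycerate, rose 1.35-fold (adjusted p = 0.00267, and 0.124 with small RNAs removed and totals made equal).

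Of 6 other lactate genes tested, 4 were called higher and 0 lower, against 25.3% and 12.1% of all genes, and 2 of the 4 calls were lost under another scaling. Ldhc, the lactate dehydrogenase of meiotic and later germ cells, rose 5.26-fold, from 1.74 ± 0.368 to 9.17 ± 2.45 FPKM (adjusted p = 4.64e-05). Emb, a partner protein of monocarboxylate transporters, rose 3.60-fold, from 8.07 ± 1.69 to 29.1 ± 4.06. The transporters Slc16a1 and Slc16a3 rose 1.37-fold and 1.44-fold, but with small RNAs removed and totals made equal neither was called (adjusted p = 0.0993 and 0.190). Slc16a3 was also not called after median-ratio scaling (adjusted p = 0.0774) and quantile normalization (0.165).

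Genes of pyruvate entry into mitochondria gave 4 rises and 2 falls among 14. Pdha2, the autosomal germ-cell copy of the pyruvate dehydrogenase subunit, rose 2.25-fold, from 9.98 ± 1.90 to 22.5 ± 1.02 (adjusted p = 0.000115). Mpc1, of the mitochondrial pyruvate carrier, rose 1.82-fold. Dld, a subunit of pyruvate dehydrogenase, rose 1.42-fold, and was not called with small RNAs removed and totals made equal (adjusted p = 0.0677). Pdk1, a kinase that switches pyruvate dehydrogenase off, fell 1.57-fold, from 54.3 ± 4.197 to 34.6 ± 1.39 (adjusted p = 0.000278). With equal totals the log2 change of Pdk1 was 0.0743, under the median of all genes at that scaling.

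In the pentose phosphate list 3 of 10 rose and 0 fell: Tktl1, from 49.0 ± 2.25 to 77.9 ± 6.45 FPKM (adjusted p = 0.000272), Tkt and Tktl2, all transketolases. Tkt and Tktl2 were not called after median-ratio scaling (adjusted p = 0.0836 and 0.0838). In the list of gluconeogenesis and glycogen 3 rose, 3 fell and 5 were not called. Glycogen synthase Gys1 fell 1.74-fold and Pgm2 1.45-fold, while Ugp2, which makes UDP-glucose, rose 1.45-fold and G6pc3, a glucose phosphatase, 1.58-fold. With equal totals Gys1 was not called and Pgm2 had a log2 change of 0.19, both under the median of all genes at that scaling.

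A further list joined hypoxia-inducible factors with hypoxia genes outside glycolysis. Of its 18 tested genes, 6 were called lower, 2 higher and 10 not called, against 12.1% lower and 25.3% higher over all genes. Their median log2 change was -0.16, against 0.09. No test of the list was made. Vegfa, a growth factor for vessels, fell 1.99-fold, from 3.25 ± 0.229 to 1.63 ± 0.116 FPKM (adjusted p = 0.000342), and Ddit4 fell 2.17-fold. P4ha1, a collagen prolyl hydroxylase, rose 1.51-fold, and Bnip3l, a mitophagy receptor, fell 1.36-fold. With equal totals Vegfa and Ddit4 lost their calls (adjusted p = 0.435 and 0.183) and Bnip3l had a log2 change of 0.28. Each of them lay under the median of all genes at that scaling. In the list of glucose and MYC regulators 2 of 14 fell and 0 rose: Akt1, a kinase that promotes glucose uptake, fell 1.87-fold and Arrdc4, an arrestin that lowers it, 1.61-fold. With equal totals Akt1 was not called (adjusted p = 0.570) and the log2 change of Arrdc4 was 0.0039, both under the median of all genes at that scaling.

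**Figure D4:**
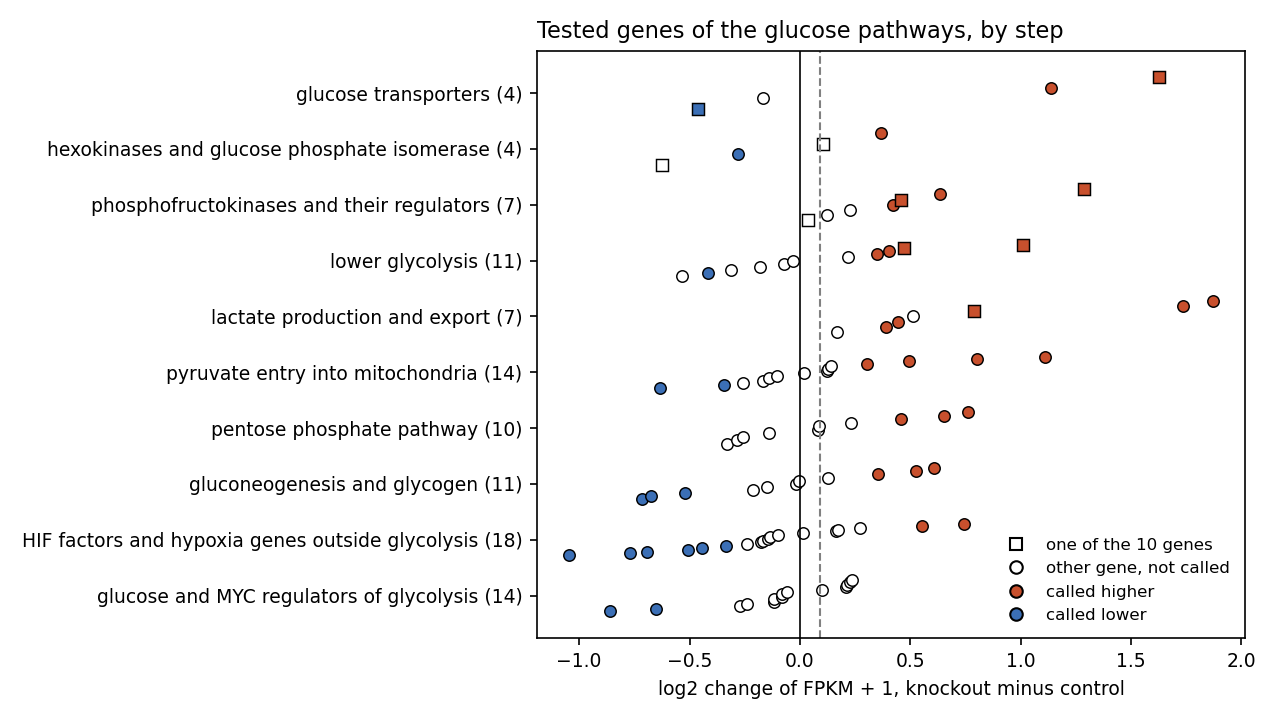
Log2 change of every tested gene in the 10 lists, with squares for the 10 genes described here and circles for others, orange for called higher, blue for called lower and white for not called, and numbers tested in parentheses. The dashed line is the median of all genes tested, 0.09. In the lactate list 5 of the 7 genes are called higher. In the list of HIF factors and hypoxia genes 6 of the 18 are called lower.

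Some marker lists also differed between the groups. Their counts are read against 25.3% called higher and 12.1% called lower over all genes tested. Of 16 meiotic prophase genes, 13 rose and 0 fell, with summed FPKM of 759.7 to 790.9 in control libraries and 1115 to 1391 in knockout libraries. Of 14 genes of undifferentiated spermatogonia, 8 fell and 1 rose, with sums of 335.1 to 438.7 and 230.9 to 302.5. Of 10 genes of differentiating spermatogonia, 3 rose and 0 fell, with overlapping sums of 393 to 482.8 and 464.7 to 513.2. The share of rises in that list was near that of all genes, and its median log2 change was -0.10. Meiob among the meiotic rises and Neurog3 among the falls of undifferentiated genes passed the filter through 1 group only. Sertoli cells carry their own glucose transporters and lactate dehydrogenase. Of 16 Sertoli genes, 13 were tested, 1 rose, Rhox8, and 12 were not called, with a median log2 change of 0.64 and sums of 37.7 to 92.2 in control libraries and 55.7 to 118.6 in knockout libraries. The part of Sertoli or meiotic RNA in the changes was not tested. Among 8 endothelial genes 2 of 4 tested rose, with sums of 5.13 to 6.85 and 13.1 to 13.7. Of 10 peritubular genes, 1 of 7 tested fell, with sums of 36.9 to 53.6 and 25.2 to 30.6. That gene was Col1a1, at 28.7 ± 2.22 and 15.6 ± 0.285, a large part of these sums. The other tested genes of the list were not called, and its median log2 change was 0.16. Leydig sums were 1.78 to 2.65 and 1.91 to 3.27, leukocyte sums 1.99 to 2.75 and 1.67 to 3.49, and erythroid sums 0.282 to 0.760 and 1.60 to 2.50, the last with no overlap. In each of these 3 lists 6 of 8 genes were not found among the deposited entries, so the sums rest on the other 2. General germ cell genes gave 2 rises and 3 falls among 12, with sums of 2027 to 2219 and 1969 to 2555. The lists share some genes, so their counts are not separate. The falls of Zbtb16 and Lin28a also count in the undifferentiated list, and the rise of Sohlh2 in the differentiating list.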

How the data were processed

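RNA was measured in 4 control and 4 knockout libraries of sorted germ cells, made with a stranded mRNA kit, per the labels' protocols. The authors deposited FPKM for each transcript and library. TopHat, Bowtie, Cufflinks and Cuffdiff with mm10 are named in the submitters' processing notes; the sources used here do not give versions, annotation, use of strand or library scaling. Where the divisor is a total over the library, very abundant RNAs can shift the FPKM of every other gene.

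Transcript FPKM were summed to genes by identifier. GENCODE M21, whose build GRCm38 is that of mm10, gave the types and positions of 44291 of 45550 entries. Depth was taken as the number that made most low FPKM whole fragments: with a tolerance of 0.1 fragment, 61.9% to 67.2% of values of up to 20 fragments came out whole, where chance gives 20%. It was used for description only.

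A gene needed a mean of 1 FPKM or more and was tested on log2(FPKM + 1), which understates the change of low genes, by limma 3.58.1 in R 4.3.3 with an intensity trend, group only, two-sided, with Benjamini-Hochberg adjustment over all genes, or all entries, and a threshold of 0.05. The script was tested on simulated data. Folds are ratios of mean FPKM, and values are mean ± SD. Isozyme ratios and entry shares were compared by exact two-sided permutation tests. The shares were added after seeing the data.

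The 10 genes, lists and tests were chosen with earlier results of these data known. Named genes were Kdm1a, the 10 genes, Ldhb, up to 4 called genes of each pathway list by adjusted p, and the 3 genes most like the called gene of largest change. Pgk2, Mir5105, Rhox8, Col1a1, Zbtb16, Lin28a, Sohlh2 and overlapping genes were named after their values were seen. Sensitivity to the pseudocount, filter, scaling, limma settings, transcript choice, replicate block and each library is given at the end.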

Additional observations from a re-analysis of the deposited data

Results flagged for a closer look

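A sample far from the rest of its group of 4, by its gap to the nearest library over the group's range, was found in 7 of 94 groups checked, or 7.45%, where chance gives about 1 in 20. Among the 10 genes these were Tpi1 in the controls, with control replicate 4 at 14.1 FPKM and the others at 10.7 to 11.1 (gap 0.873 of the range), and Pgk1 in the controls, with control replicate 2 at 10.4 and the others at 11.3 to 11.5 (0.844). Without those libraries Tpi1 and Pgk1 kept their calls. Kdm1a was at 92.0 in control replicate 3 and 48.1 to 54.0 in the other controls (0.866). Pdha2 was at 12.8 in control replicate 3 and 8.93 to 9.20 in the others (0.931). The other 3 were in knockout replicate 2: Pfkfb2 at 4.53 against 6.82 to 7.21 (0.855), Gapdh at 164.9 against 121.7 to 127.2 (0.872) and Eno1 at 170.2 against 109.6 to 118.8 (0.848).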

How the results depend on the processing

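The 6 rises remained 6 with each library left out and in every setting but 2: equal totals gave 8, with Hk2 (0.79, adjusted p = 0.00475) and Pfkl (0.44, 0.0404) added, and the most abundant entry of each gene gave 5, since Pfkm was not called (log2 change 0.22, adjusted p = 0.159). Genes called lower numbered 2 of the 10, with Hk1 added, after median-ratio scaling, quantile normalization, with the replicate block, with the most abundant entry, with protein-coding transcripts and without entries listed at 0. They numbered 1 to 2 with each library left out and 0 with equal totals. With equal totals Slc2a1 was at 0.21 and Hk1 at 0.0343, both under the median of all genes at that scaling, 0.74. Hk2 was at -0.0371 after median-ratio scaling, -0.0035 after quantile normalization, -0.0249 with small RNAs removed and totals made equal, -0.23 with the most abundant entry or protein-coding transcripts and -0.17 without knockout replicate 2, with a range of -0.17 to 0.26 over libraries left out. Pfkl was at -0.0429, -0.14 and -0.0335 under those 3 scalings and ranged from -0.0022, without control replicate 2, to 0.116 over libraries left out. With equal totals, Gpi1 was at 0.44, Eno1 at 0.30, Pdk1 at 0.0743, Pgm2 at 0.19, Bnip3l at 0.28 and Arrdc4 at 0.0039. Each of these also lay under that median.

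Over all genes, rises numbered 2164 with a filter of 5 FPKM, which tests fewer genes, 9808 with equal totals alone and 2237 with small RNAs removed and totals made equal. Falls numbered 2769 after median-ratio scaling, 147 with equal totals and 2648 after quantile normalization. With each library left out rises numbered 2621 to 3816 and falls 1165 to 2034. Ratios of the most abundant entries were -3.52 for Slc2a1 to Slc2a3, -0.17 for Pfkl to Pfkm, -1.97 for Pfkl to Pfkp and -1.80 for Pfkm to Pfkp, with adjusted p of 0.0571, 0.583, 0.0571 and 0.0571. The values of 0.0571 are the smallest exact p, 0.0286, adjusted with 3 pairs at that p in place of 4. Why the Pfkl to Pfkm difference shrank was not tested. With a library left out, 35 assignments allow no p under 0.0571, and the 4 differences that passed stayed at -2.35 to -2.16, -0.51 to -0.32, -1.41 to -1.15 and -0.93 to -0.83.

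Same-numbered libraries had correlations of deviations of -0.13 to 0.22, and differently numbered ones of -0.33 to 0.25. These values cannot show whether the shared replicate numbers pair the libraries, and the labels do not say so. With the replicate block, 2983 genes rose and 1408 fell, 6 and 2 of the 10 genes did, and Hk1 was called (adjusted p = 0.0338). For isozyme ratios the block leaves the differences as they are, at -2.27, -0.81, -0.43, -1.31, -0.88 and 0.29, and its smallest p is 0.125.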
